A study of Mus musculus with 12 samples.

Results

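The miR-29 family was followed through the nuclear and cytoplasmic small RNA of C166 cells, a mouse endothelial line derived from the yolk sac. The arms listed for the family were looked up by name among the 350 miRNAs of the sequenced table, after removal of the plus sign and number that 32 names carry. All 4 arms had a row: mmu-miR-29a-3p, mmu-miR-29b-3p, mmu-miR-29c-3p and mmu-miR-29a-5p. The cells were kept in normal air (0 h) or in 1% oxygen for 2 or 24 h, and the cells were separated into nucleus and cytoplasm by lysis in a hypotonic buffer with a mild detergent. This gave 6 groups of 2 libraries, 12 in all, with no other agent or genetic change between them. The results hold for a single cell line. The study calls its replicates biological, whereas the sample labels give only a number, so the p-values measure the spread between these libraries.

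miRNAs are cut from hairpin precursors, which can release a mature strand from each side, the 5p and the 3p arm. The arm that is kept is loaded onto an Argonaute protein and pairs with target mRNAs through its seed, bases 2 to 8, and the other arm is usually degraded. The 3p arms of miR-29 are known as repressors of collagen, elastin and other extracellular matrix mRNAs, and in heart, lung and vessel wall they have been studied mainly in fibrosis. Dicer cuts the precursor in the cytoplasm, so a mature miRNA found in the nucleus has as a rule been carried back. In human cells the hexamer AGUGUU at the 3′ end of miR-29b has been described as a nuclear import signal, which makes the distribution of its sister arms of interest.

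The sequences below, from RefSeq for mouse build GRCm38.p6, are shown because the arms differ from each other by so few bases. The seed is in capitals.
mmu-miR-29a-3p: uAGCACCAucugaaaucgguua
mmu-miR-29c-3p: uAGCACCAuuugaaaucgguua
mmu-miR-29b-3p: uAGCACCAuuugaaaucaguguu
mmu-miR-29a-5p: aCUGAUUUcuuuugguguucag
The seed AGCACCA was shared by these 3 3p arms and by no other miRNA among the 301 of the table whose names matched a RefSeq mature sequence. The seed of miR-29a-5p, CUGAUUU, was found in that arm only. Counted from the 5′ end, miR-29a-3p and miR-29c-3p differed by the substitution C10U. From miR-29c-3p to miR-29b-3p the first 17 bases were identical, and the substitutions were G18A, U21G and A22U, with 1 further base at the end of miR-29b-3p.

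The arms come from 4 hairpin genes in 2 clusters (GRCm38.p6). Mir29a lies on the minus strand at chr6:31062660-31062747, with 275 bases between it and Mir29b-1 at chr6:31063023-31063093, whose 5′ end overlaps an exon of the lincRNA Gm27019. Mir29b-2, at chr1:195037040-195037120, and Mir29c, at chr1:195037547-195037634, lie on the plus strand 426 bases apart. Both are in an exon of the noncoding transcript A330023F24Rik and opposite a UTR exon of Cd46, which is on the minus strand. Mir29b-1 and Mir29b-2 give the same mature 3p sequence, so reads of miR-29b-3p cannot be assigned to either locus. RefSeq lists 7 mature miR-29 arms, and the 3 without a row here are miR-29b-1-5p, miR-29b-2-5p and miR-29c-5p. The Mir29a hairpin is shown since it is the only one with both arms in the table. Its arms are in capitals, the 5p arm first.
Mir29a: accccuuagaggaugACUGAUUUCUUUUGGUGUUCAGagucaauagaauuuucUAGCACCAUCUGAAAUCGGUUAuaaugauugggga

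The libraries held 3379276 to 4375616 reads in the nucleus and 4708753 to 7787926 in the cytoplasm over the miRNAs of the table. The values are normalized counts, that is, reads divided by the size factor of the library. miR-21a-5p took between 37.4% and 60.3% of the reads, a share that moved with both fraction and time. miR-210-3p, a miRNA known to be induced by hypoxia, rose by 24 h in the cytoplasm (log2 change 2.31 ± 0.17, SE, adjusted p = 7.4e-10) and in the nucleus (2.84 ± 0.17, adjusted p = 1.1e-08). The endothelial miR-126a-3p was present at a mean of 559 normalized counts, rank 141 of 350, and miR-126a-5p had no row. The smooth muscle and fibroblast miRNA miR-143-3p was the second most abundant of all, none of the 5 blood cell markers had a row, and 3 of 7 epithelial markers were found at low levels. Of the neuronal markers miR-128-3p was at 2541, rank 78, and miR-9-5p at 51.1. The striated muscle miR-206-3p was at 420, rank 155, and the liver miR-122-5p at 56.3. No value of the table is under 10 reads, so a missing row does not show absence.

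miR-29a-3p was by far the most abundant arm, with a mean of 14603 normalized counts over the 12 libraries, rank 33 of 350. It was followed by miR-29b-3p at 309, rank 181, miR-29a-5p at 40.5, rank 311, and miR-29c-3p at 31.1, rank 326. Of the 3 arms that share the seed, miR-29a-3p made up 97.6% to 98.4% of the normalized counts in the cytoplasm and 96.9% to 98.5% in the nucleus. miR-29a-3p and miR-29b-3p held the first places in every library. The order of the last 2 depended on the fraction. In the nucleus they did not differ beyond their spread: miR-29c-3p had 37.7 ± 4.55 (SD, n = 6) and miR-29a-5p 37.6 ± 8.66 normalized counts. In the cytoplasm miR-29a-5p was above miR-29c-3p in all libraries of 0 and 2 h, at 46.3 to 65.1 against 18.6 to 35.1, and their ranges overlapped at 24 h, at 18.6 to 19.6 against 17.0 to 24.1. The arms are 22 or 23 bases long, so the order needed no correction for length, but it is an order of reads, and small RNA adapters do not join all ends equally well.

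Depth set the precision of each arm. miR-29a-3p had 10184 to 19305 reads in a library, for a counting error of at most 0.991%. miR-29b-3p had 168 to 410 reads and an error of 4.94% to 7.72%. With 21 to 48 reads for miR-29c-3p and 18 to 99 for miR-29a-5p, the counting error reached 21.8% and 23.6%. miR-29c-3p also differs at 1 base from miR-29a-3p, which had 342 to 571 times its normalized count, and the mismatches allowed in alignment are not given in the sources used here, so some of its reads could be misread miR-29a-3p.

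**Figure D1:**
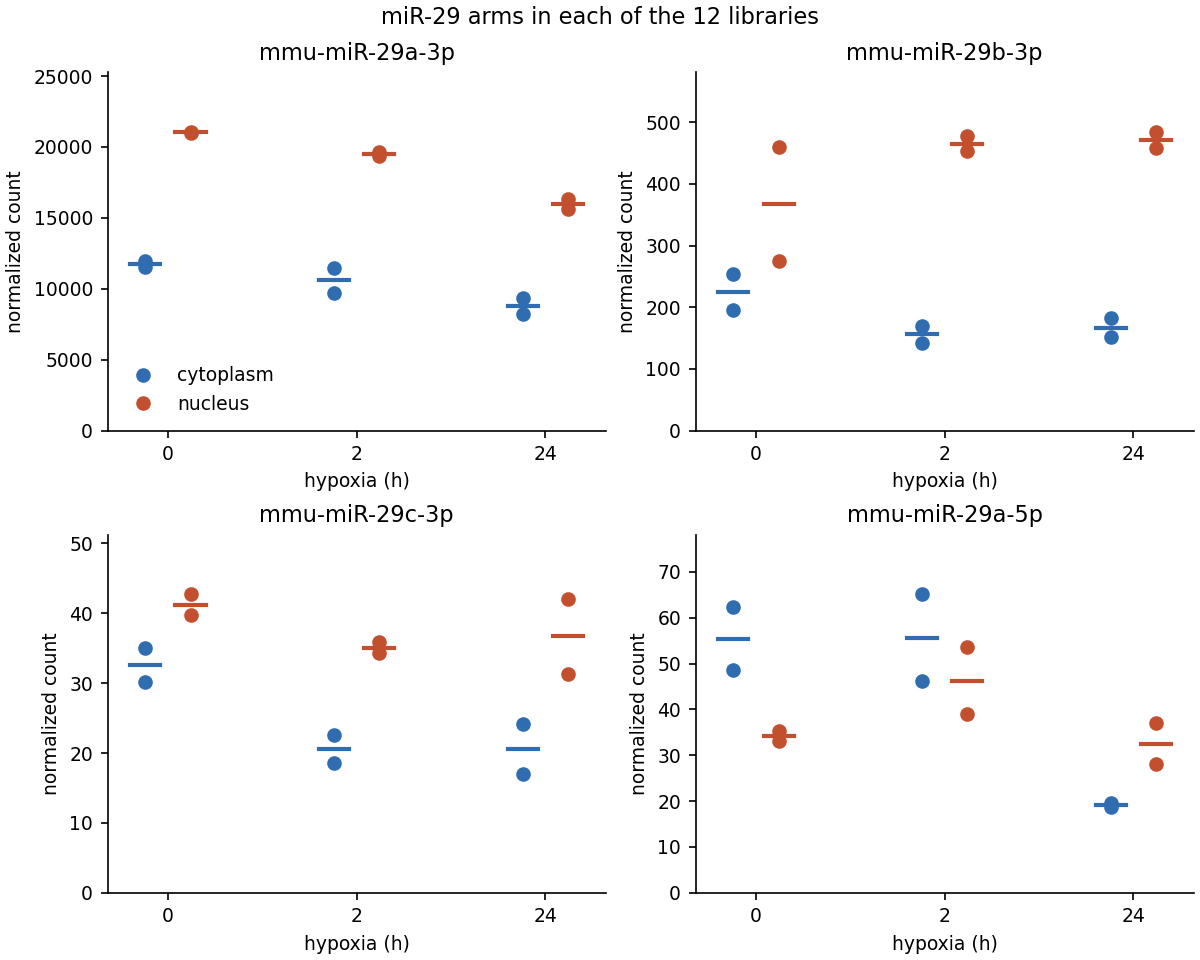
Normalized count (y axis, from 0) of each miR-29 arm at 0, 2 and 24 h of hypoxia (x axis) in the cytoplasm (blue) and the nucleus (red). Each point is a library and each bar the mean of 2. Every nuclear library lay above every cytoplasmic library for miR-29a-3p and miR-29b-3p, and the fractions overlapped for miR-29c-3p and miR-29a-5p. How many of all miRNAs separate in this way was not counted.

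The main question was how the arms divide between nucleus and cytoplasm. miR-29a-3p and miR-29b-3p were higher in the nucleus, by 1.82-fold and 2.38-fold. miR-29c-3p was 1.55-fold higher on average but did not pass the test, and the passenger arm miR-29a-5p showed no difference that the test could detect. So 2 of the 4 arms were called higher in the nucleus, and none lower, where 20.9% of all 350 miRNAs were called higher (limma on log2 of normalized count + 1, adjusted p under 0.01). miR-29b-3p was also past 2-fold, as were 12.3% of all miRNAs. Equal amounts of RNA went into each library and size factors scaled the reads, so these are differences relative to the other miRNAs of a fraction. With the total count as the scale, a share of the fraction's miRNAs, the log2 differences were 0.65 for miR-29a-3p and 1.04 for miR-29b-3p. With the size factors they were 0.86 and 1.25. Of the 157 miRNAs called, 73 were higher and 84 lower in the nucleus, whereas the total count as the scale gave 46 and 103, and that total without miR-21a-5p gave 41 and 117. A higher relative level in the nucleus and more molecules in each nucleus cannot be told apart here.

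In normalized counts, miR-29a-3p had 11499 and 11991 in the cytoplasm at 0 h, then 11448 and 9722 at 2 h and 8244 and 9344 at 24 h. Its nuclear libraries had 21054 and 21001 at 0 h, 19622 and 19363 at 2 h, and 15651 and 16297 at 24 h. Thus the lowest nuclear library exceeded the highest cytoplasmic library, a separation that was not counted over all miRNAs. The log2 difference was 0.86 ± 0.14 (SE, adjusted p = 7.6e-05), with a 95% confidence interval of 0.57 to 1.15. At each time alone it was 0.84 at 0 h, 0.89 at 2 h and 0.86 at 24 h, all called, while the mean count of both fractions was lowest at 24 h. The share of all miRNAs called higher in the nucleus was 26% at 0 h, 23.7% at 2 h and 11.1% at 24 h.

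miR-29b-3p, the arm with AGUGUU, had 254 and 196 normalized counts in the cytoplasm at 0 h, 170 and 142 at 2 h, and 151 and 183 at 24 h. In the nucleus it had 460 and 275 at 0 h, 453 and 477 at 2 h, and 459 and 484 at 24 h. Its nuclear libraries lay within a narrow band except replicate 2 at 0 h, which was close to the cytoplasmic range without reaching it. Over all times the log2 difference was 1.25 ± 0.18 (SE, adjusted p = 4.4e-05), with a 95% confidence interval of 0.86 to 1.64. It was 0.67 ± 0.23 at 0 h (adjusted p = 0.017), which missed the threshold, and 1.58 at 2 h and 1.50 at 24 h, which passed it. The value at 0 h rested on single libraries, since it became 1.04 (adjusted p = 0.0012) without nuclear replicate 2 and 0.86 (adjusted p = 0.0091) without cytoplasmic replicate 1. It was 0.30 (adjusted p = 0.30) without nuclear replicate 1 and 0.49 (adjusted p = 0.12) without cytoplasmic replicate 2. With the total count without miR-21a-5p as the scale it was 0.13 (adjusted p = 0.70).

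miR-29c-3p had 30.2 and 35.1 normalized counts in the cytoplasm at 0 h, 22.5 and 18.6 at 2 h, and 17.0 and 24.1 at 24 h. In the nucleus it had 42.7 and 39.7 at 0 h, 34.3 and 35.8 at 2 h, and 31.3 and 42.0 at 24 h. At each time both nuclear libraries were above both cytoplasmic libraries, and the ranges overlapped only across times. The log2 difference of 0.63 ± 0.20 (SE) had a 95% confidence interval of 0.21 to 1.05 and an adjusted p of 0.013, just outside the threshold. It was 0.42 (adjusted p = 0.12) with the total count as the scale and 0.25 (adjusted p = 0.39) with that total without miR-21a-5p. It passed with time as a further term (adjusted p = 0.0045) and when either cytoplasmic 0 h library was left out (0.70 and 0.74, adjusted p = 0.0099 and 0.00602). At single times it was 0.33 at 0 h, 0.75 at 2 h and 0.81 at 24 h, none of them called.

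miR-29a-5p, the less abundant strand of the Mir29a hairpin, had 62.3 and 48.6 normalized counts in the cytoplasm at 0 h, 46.3 and 65.1 at 2 h, and 18.6 and 19.6 at 24 h. In the nucleus it had 33.1 and 35.3 at 0 h, 53.6 and 39.0 at 2 h, and 36.9 and 28.0 at 24 h. Its cytoplasmic libraries were above the nuclear ones at 0 h, overlapped them at 2 h and were below them at 24 h. Over all times the log2 difference was -0.07 ± 0.31 (SE, adjusted p = 0.87), with a 95% confidence interval of -0.73 to 0.59. At single times it was -0.67 at 0 h (adjusted p = 0.051), -0.26 at 2 h and 0.72 at 24 h (adjusted p = 0.051), and none was called.

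**Figure D2:**
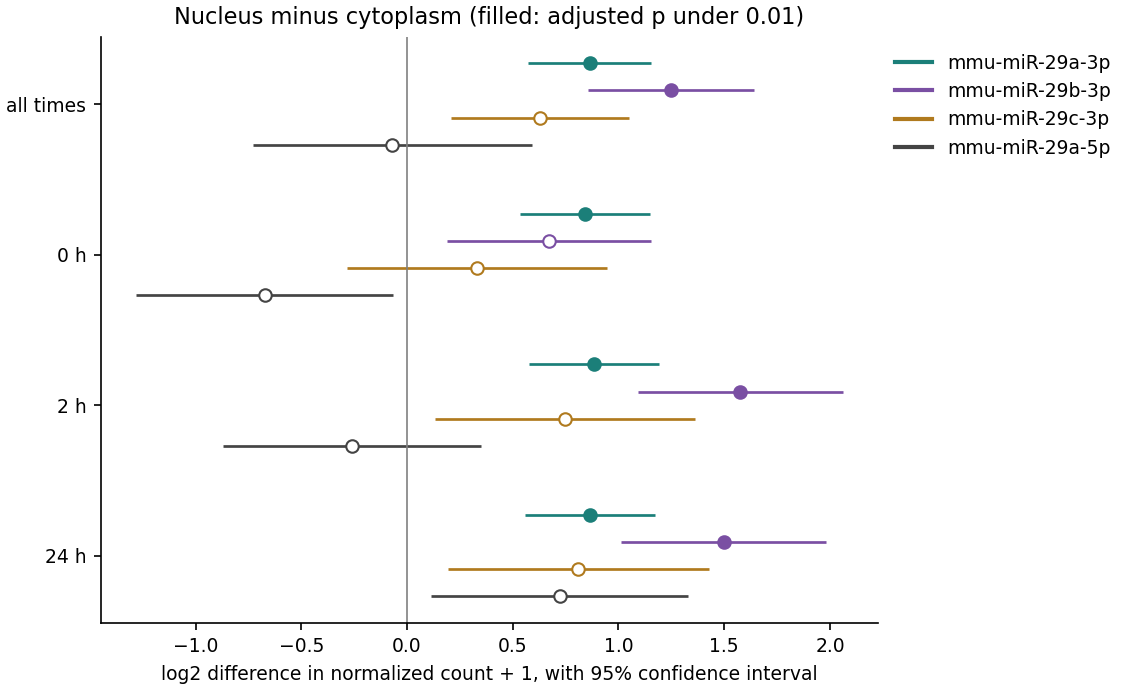
Nucleus minus cytoplasm, as the log2 difference of normalized count + 1 (x axis), for each arm over all times and at 0, 2 and 24 h. Points are the fitted differences, lines their 95% confidence intervals, and filled points have an adjusted p under 0.01. miR-29a-3p stayed between 0.84 and 0.89, and miR-29b-3p lay at 0.67 at 0 h and at 1.58 and 1.50 at 2 and 24 h.

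These differences depend on how the libraries were scaled. When each library was scaled to its total count without miR-21a-5p, the median of all 350 miRNAs shifted to -0.36 over all times and to -0.55 at 0 h, and the miR-29a-3p difference was 0.47 and 0.29. A difference taken from that median cannot change with the scaling, apart from the pseudocount, so it cannot tell which scale is right. For miR-29a-3p at 0 h it was 0.86. miR-29a-3p was higher in the nucleus under every scaling tried, but its difference missed the threshold at 0 h (0.29, adjusted p = 0.15) and 2 h (0.47, adjusted p = 0.023) with the total without miR-21a-5p, and at 24 h (0.41, adjusted p = 0.079) with the total count. At 0, 2 and 24 h in turn the total without miR-21a-5p also turned the calls over all miRNAs from 91 higher and 94 lower to 57 and 153, from 83 and 91 to 50 and 126, and from 39 and 56 to 20 and 76. The total count gave 11 and 104 at 24 h, and miR-186-5p gave 102 and 59 at 0 h and 17 and 46 at 24 h. miR-29b-3p kept its calls over all times, at 2 h and at 24 h under each of these scalings.

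To compare the arms free of any scaling, the log2 ratio of 2 arms was taken within each library. The question was whether the arm with the hexamer was more nuclear than its sister arms. For miR-29b-3p over miR-29a-3p the mean was -5.45 ± 0.43 (SD, n = 6) in the nucleus and -5.84 ± 0.24 in the cytoplasm. The difference of 0.39, a 1.31-fold higher ratio in the nucleus, gave p = 0.111 in an exact 2-sided permutation test within times, and 0.111 adjusted over the 3 ratios. The test allows no p below 0.00926. At 0 h the 2 nuclear libraries lay at -5.52 and -6.25, on either side of the cytoplasmic mean, whereas at 2 and 24 h the nuclear libraries lay between -5.44 and -5.07, above all 6 cytoplasmic ones. The mean ratio at 24 h was 0.80 above that at 0 h in the nucleus and differed by 0.00 in the cytoplasm. These changes with time were not tested. Without nuclear replicate 2 at 0 h the difference was 0.51, and without cytoplasmic replicate 1 it was 0.46, each with an adjusted exact p of 0.0417.

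For miR-29c-3p over miR-29a-3p the ratio was 0.21 lower in the nucleus on the log2 scale (exact permutation p = 0.0648, adjusted 0.0972). The means were -8.96 ± 0.20 (SD, n = 6) in the nucleus and -8.75 ± 0.26 in the cytoplasm. For the strands of the Mir29a hairpin, miR-29a-5p over miR-29a-3p, the nuclear mean was -8.99 ± 0.31 and the cytoplasmic mean -8.06 ± 0.67 (SD, n = 6). That is a log2 difference of -0.93, with an exact permutation p of 0.0278 and 0.0833 after adjustment, so none of the 3 ratios passed. This last one did pass when cytoplasmic 0 h replicate 1, nuclear 0 h replicate 2 or nuclear 24 h replicate 1 was left out, with adjusted exact p values down to 0.0278. Among the 86 hairpins with both arms in the table the less abundant arm was relatively lower in the nucleus in 55, with a median of -0.24, and Mir29a stood at place 28 from the lowest.

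**Figure D3:**
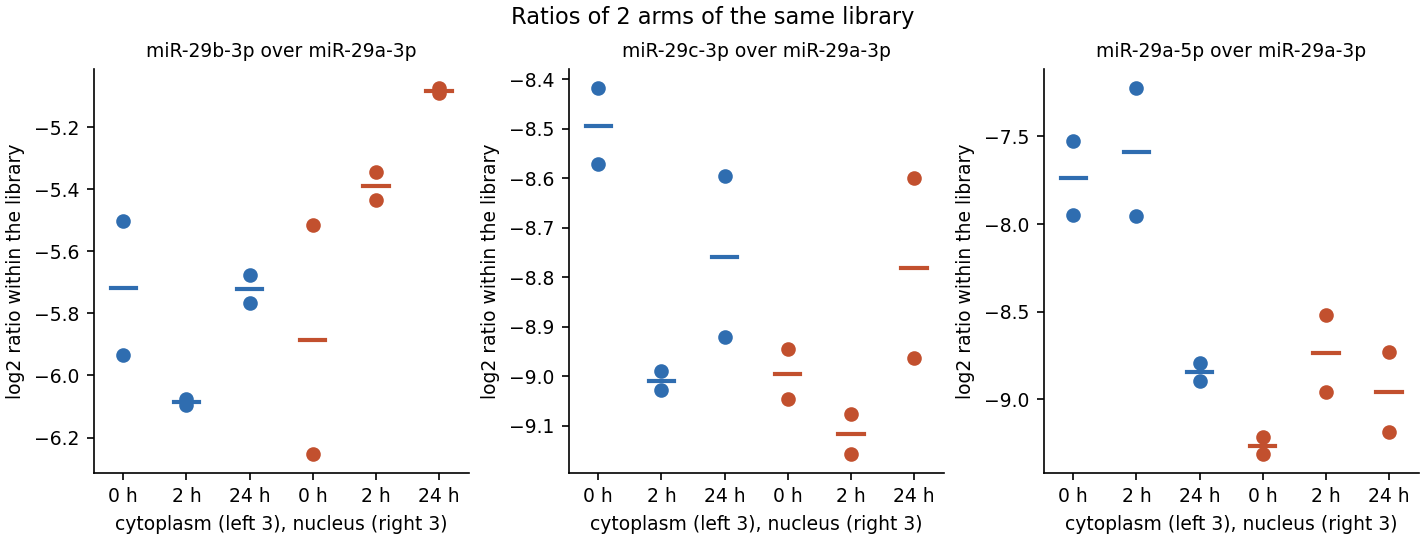
Log2 ratio of 2 arms within each library (y axis, scales differ between panels) by time in the cytoplasm (blue) and the nucleus (red). Points are libraries and bars means of 2. The ratio of miR-29b-3p to miR-29a-3p in the nucleus ran from -6.25 in a 0 h library to -5.07 in a 24 h library, and that of miR-29a-5p to miR-29a-3p in the cytoplasm was -8.79 and -8.90 at 24 h.

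Outside the family, the hexamer AGUGUU was looked for on the strand of the mature miRNA. It was found in 2 of the 301 miRNAs of the table with a matched sequence, or 0.664%, and in 12 of 1679 mature mouse miRNAs of RefSeq, or 0.715%. miR-199b-5p, which has a row, had no matched sequence and was not searched. The study reports the hexamer in that miRNA as well, so its values are also given below. The second of the 2 found here is miR-199a-5p. There the hexamer lies at bases 4 to 9, toward the 5′ end, rather than at bases 18 to 23 as in miR-29b-3p. The hexamer is in capitals in both.
mmu-miR-29b-3p: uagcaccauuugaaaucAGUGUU
mmu-miR-199a-5p: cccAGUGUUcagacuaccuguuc
miR-199a-5p ranged from 5662 to 9149 normalized counts in the cytoplasm and from 7602 to 14584 in the nucleus, so its fractions overlapped. Its log2 difference over all times was 0.48 ± 0.17 (SE, adjusted p = 0.026), not called. It was 0.07 at 0 h (adjusted p = 0.77), and 0.69 at 2 h (adjusted p = 0.0021) and 0.69 at 24 h (adjusted p = 0.0038), both called. For miR-199b-5p it was 0.44 ± 0.28 (SE, adjusted p = 0.19) over all times, not called. At single times miR-199b-5p had 0.05 at 0 h, 0.81 at 2 h (adjusted p = 0.0023, called) and 0.46 at 24 h (adjusted p = 0.075). A match is a description of the letters and no evidence of a signal. Without the hexamer, miR-29c-3p and miR-29a-3p had differences of 0.63 and 0.86.

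The second question was how hypoxia changed the arms. After 24 h the only called change among the arms was a fall of miR-29a-5p in the cytoplasm, by 2.79-fold. The other arms had lower cytoplasmic means at 24 h without passing the test. So 1 of 4 arms was called lower, where 16.3% of all miRNAs were, and 9.71% were lower and past 2-fold as miR-29a-5p was. In the nucleus no arm was called in either direction at 24 h, where 32.6% of all miRNAs were. The direction of the calls depended on the scaling. In the cytoplasm 29 miRNAs were higher and 57 lower, but 50 and 13 with the total count as the scale, 26 and 29 with that total without miR-21a-5p and 12 and 5 with miR-186-5p. In the nucleus there were 45 and 69, but 125 and 38 with the total without miR-21a-5p and 21 and 63 with miR-186-5p.

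The cytoplasmic libraries of miR-29a-5p at 24 h, with 18.6 and 19.6 normalized counts from 23 and 26 reads, were below all other libraries of either fraction. At 0 h there had been 62.3 and 48.6 from 99 and 61 reads. The log2 change was -1.48 ± 0.30 (SE, adjusted p = 4.9e-04), with a 95% confidence interval of -2.10 to -0.86. Leaving out any library moved it between -1.65 and -1.30 and kept the call. It missed the threshold after scaling to the total count (-1.07, adjusted p = 0.015) or to miR-186-5p (-1.18, adjusted p = 0.034). Taken from the median of all miRNAs, a difference that scaling cannot change apart from the pseudocount, it was -1.38, which likewise favors no scale. Against miR-29a-3p of the same libraries the mean log2 ratio changed by -1.11, place 10 from the lowest among 86 hairpins, where the median hairpin changed by -0.18.

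Several other measures moved with that fall, though not every marker did. The 24 h cytoplasmic libraries were the shallowest of their fraction, with 4708753 and 4809100 reads against 6398901 to 7787926 at 0 h. The 3 epithelial markers of 7 that had a row summed to 92.1 and 93.9 normalized counts at 24 h against 192 and 297 at 0 h, and the liver marker miR-122-5p was at 30.2 and 33.2 against 71.8 and 155. The remaining 4 epithelial markers had no row. The smooth muscle and fibroblast markers, both with a row, summed to 332228 and 363623 against 535643 and 566697, and miR-126a-3p, the endothelial marker with a row of 2, was at 476 and 487 against 557 and 860. The 2 of 3 neuronal markers with a row summed to 1965 and 2263 against 2338 and 2752. The only striated muscle marker with a row, miR-206-3p, did not fall, at 297 and 347 against 250 and 301. Nor did miR-145a-5p, the rarer member of the smooth muscle and fibroblast sum (limma log2 change 0.15 ± 0.18, SE, adjusted p = 0.51). The share of miR-21a-5p was 48.8% and 51.0% against 57.7% and 60.3%. In the nucleus the same 3 epithelial markers summed to 76.1 and 98.1 at 24 h against 253 and 266 at 0 h. There miR-122-5p was at 21.8 and 30.2 against 42.7 and 53.8, and the miR-29a-5p change was -0.08. The nuclear smooth muscle and fibroblast sum and miR-206-3p were also lower at 24 h, and miR-126a-3p and the neuronal sum were higher. The part of these measures in the result was not tested.

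The 3p arms changed less. miR-29a-3p was lower at 24 h by 0.42 ± 0.18 (SE) on the log2 scale in the cytoplasm (adjusted p = 0.071) and by 0.40 ± 0.14 in the nucleus (adjusted p = 0.031). Its 24 h libraries lay below its 0 h libraries in both fractions, but the change turned to 0.01 in the cytoplasm with the total count and to 0.06 in the nucleus with the total without miR-21a-5p. miR-29b-3p went in different directions, at -0.42 ± 0.22 in the cytoplasm (adjusted p = 0.14) and 0.40 ± 0.23 in the nucleus (adjusted p = 0.15). The nuclear change was 0.77 (adjusted p = 0.0089) without 0 h replicate 1 and 0.03 without 0 h replicate 2, and with the total count the cytoplasmic change was 0.00. miR-29c-3p was at -0.66 ± 0.33 in the cytoplasm (adjusted p = 0.12) and -0.18 ± 0.29 in the nucleus (adjusted p = 0.64). For miR-29a-5p in the nucleus the change was -0.08, with a 95% confidence interval of -0.73 to 0.57.

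**Figure D4:**
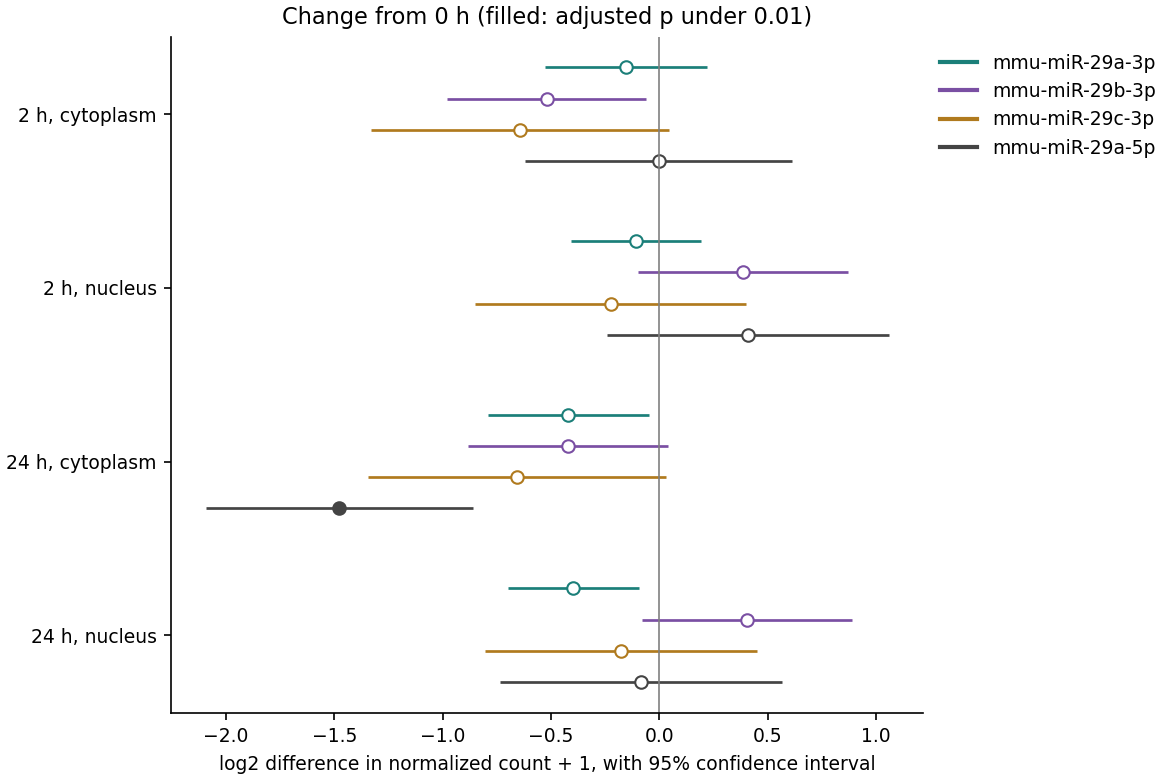
Change from 0 h, as the log2 difference of normalized count + 1 (x axis), for each arm at 2 and 24 h in each fraction. Points are the fitted changes, lines their 95% confidence intervals, and the filled point has an adjusted p under 0.01. miR-29a-5p in the cytoplasm at 24 h, at -1.48, was the only arm and time called.

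At 2 h no arm was called in either fraction. In the cytoplasm 0% of all miRNAs were called by limma, 39 having an unadjusted p under 0.05, and in the nucleus 0%, with 102. miR-29b-3p had the arms' lowest unadjusted p in the cytoplasm, with a change of -0.52 ± 0.22 (SE, adjusted p = 0.34). Its libraries at 2 h, 170 and 142, were below those at 0 h, 254 and 196. In the nucleus its change at 2 h was 0.38 ± 0.23, and here the 0 h libraries of 460 and 275 lay wider apart than the difference between the times.

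Whether an arm responded differently in the 2 fractions was tested as an interaction. At 24 h it was positive and called (adjusted p under 0.05) for miR-29a-5p, at 1.39 ± 0.41 (SE, adjusted p = 0.012), and for miR-29b-3p, at 0.83 ± 0.32 (adjusted p = 0.047). The same direction was called for 25.1% of all miRNAs, so 2 of 4 arms stood against that share. Among all miRNAs 88 miRNAs were positive and 74 negative, against 32 and 105 scaled to the total count, 125 and 38 to that total without miR-21a-5p, and 27 and 103 to miR-186-5p. The miR-29b-3p result was weak. It was 0.46 (adjusted p = 0.25) without nuclear 0 h replicate 2 and missed the threshold in 8 of the 12 fits with 1 library left out. Both interactions also missed it when scaled to the total count (0.41 for miR-29b-3p and 0.99 for miR-29a-5p) or to miR-186-5p (0.35 and 0.93). miR-29a-3p had an interaction of 0.02 ± 0.21, with a 95% confidence interval of -0.41 to 0.46, and miR-29c-3p one of 0.48 ± 0.41. At 2 h no arm was called, where 5.71% of all miRNAs were in either direction, and the value for miR-29b-3p was 0.90 ± 0.32 (adjusted p = 0.086). It passed without cytoplasmic 0 h replicate 2 (1.09, adjusted p = 0.029) or nuclear 0 h replicate 1 (1.28, adjusted p = 0.016). Among all miRNAs 15 miRNAs were positive and 5 negative, and the total count made them 3 and 10.

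**Figure D5:**
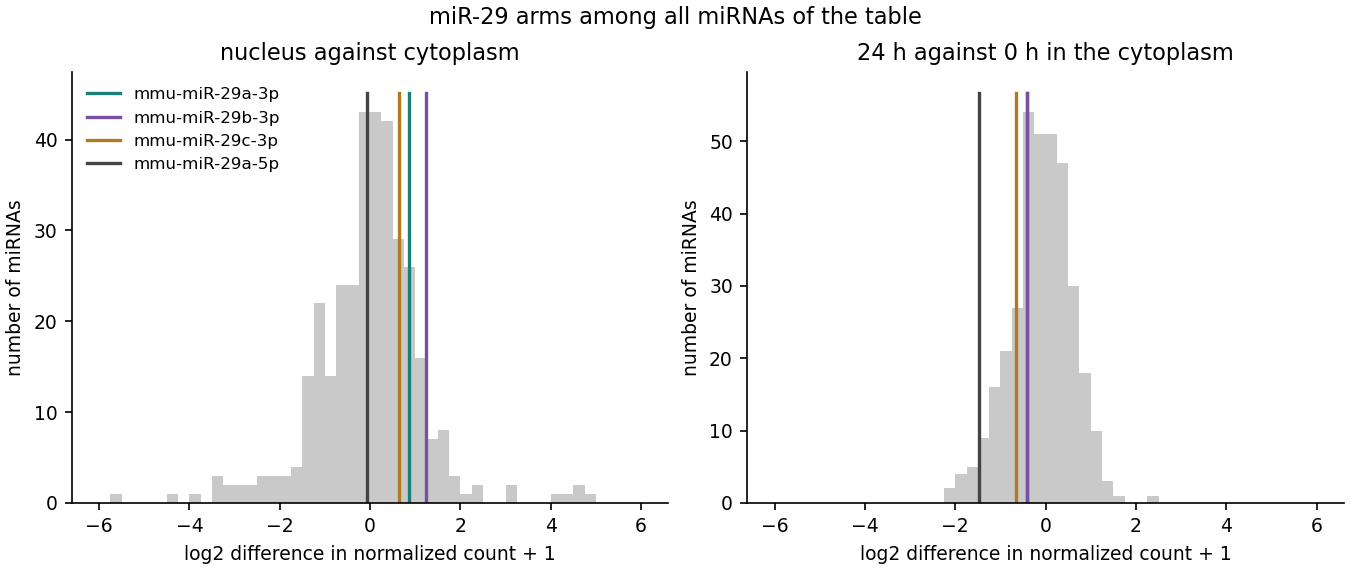
Number of miRNAs (y axis) by log2 difference of normalized count + 1 (x axis), for nucleus against cytoplasm (left) and for 24 h against 0 h in the cytoplasm (right), with a vertical line for each miR-29 arm. On the right miR-29a-5p, at -1.48, was twelfth from the lowest of 350, and the lines of miR-29a-3p and miR-29b-3p, both at -0.42, coincide.

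The pattern of each arm over the 12 libraries was compared with that of the other 349 miRNAs by Pearson's r of log2 normalized count + 1, as a description, since all pairs share the libraries, their scaling and the split into fractions. miR-29a-3p was most like miR-6539 (r = 0.96), miR-155-5p (0.96) and miR-3535 (0.95). miR-29b-3p was most like miR-140-5p (0.95), miR-34c-5p (0.93) and miR-5121 (0.92). Between the 3p arms r was 0.86 for miR-29a-3p with miR-29b-3p and 0.87 with miR-29c-3p, and it was 0.17 between the strands of Mir29a. With the mean of each fraction subtracted, r between miR-29a-3p and miR-29b-3p was 0.10 and that between the strands 0.59.

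miR-29a-5p was most like miR-192-5p (0.94), miR-143-3p (0.84) and miR-149-5p (0.84). With fraction means subtracted its nearest were miR-132-3p (0.96), miR-192-5p (0.94) and miR-219a-1-3p (0.92), those of miR-29a-3p were miR-17-3p (0.95), miR-145a-3p (0.90) and miR-18a-5p (0.90), and those of miR-29b-3p were miR-1306-3p (0.88), miR-148b-5p (0.82) and miR-27a-3p (0.81).

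As context, 22 other miRNAs studied in fibrosis and the vessel wall were followed, of which 21 had a row. Between the fractions 7 were called higher in the nucleus and 2 lower, where 73 and 84 of all 350 were, and the median log2 difference was 0.28 beside 0.03 over all miRNAs. At 24 h in the cytoplasm 3 were called higher and 6 lower, beside 29 and 57 of all 350 (median -0.36 beside -0.10). In the nucleus 3 were higher and 8 lower, beside 45 and 69 of all 350 (median -0.22 beside -0.02). The largest called changes were those of miR-203-3p, an epithelial miRNA that is also among the markers above (-2.07 ± 0.29, SE, in the nucleus and -1.39 ± 0.31 in the cytoplasm), miR-19b-3p of the miR-17-92 cluster (-1.32 ± 0.20 in the nucleus), miR-199b-5p (1.27 ± 0.22 in the nucleus and 0.85 ± 0.18 in the cytoplasm) and another of those markers, miR-200b-3p (-1.20 ± 0.29 in the cytoplasm and -1.13 ± 0.28 in the nucleus). Of the less abundant arms of the 86 hairpins, 19 were called lower and 7 higher in the cytoplasm at 24 h, miR-29a-5p among the former, and 22.1% lower compares with 16.3% over the table.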

How the data were processed

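Small RNA of nuclear and cytoplasmic fractions was sequenced in 12 libraries, 2 for each of 6 groups. The authors made the libraries with the NEBNext small RNA kit from equal amounts of RNA. The authors trimmed reads (Trimmomatic), aligned these to miRBase release 20 (Bowtie2 2.1.0) and used DESeq2 size factors. Deposited by the authors as signal values are the resulting normalized counts, 350 miRNAs by 12 libraries, in which no value is under 10 reads. The other columns hold the authors' comparisons (fold changes and p-values) and were not used. The size factor of each library was inferred here, by a search for the factor that makes its lowest values whole reads. With it 100% of the values came within 0.01 of a whole read, which the search itself aimed at. The reads and depths given were recovered in this way.

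Comparisons were fitted with limma 3.58.1 in R 4.3.3 on log2(normalized count + 1) with a variance trend, over all miRNAs, with Benjamini-Hochberg adjustment. A fold change on this scale understates the change of rare miRNAs. Calls needed an adjusted p under 0.01, or 0.05 for interactions. Changes with time were fitted within a fraction, and fraction over all times with no other term. Ratios of 2 arms were compared with exact permutation tests (scipy 1.17.1), fraction labels permuted within time. Fits were also run on simulated independent counts with planted changes and a fixed spread, which does not test the effect of scaling or of pairing. Intervals and errors of reads cover counting error only.

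The alternatives were pseudocounts of 0.5 and 10, filters at a mean of 25 and 100, other scalings, limma-voom on the recovered reads, further terms and each library left out. Named miRNAs are the 4 arms, holders of AGUGUU, the list of 22 by count with the 4 largest called changes, and the 3 nearest patterns of 3 of the arms. The members, lists and tests were chosen with earlier results of these data known. Replicates with the same number at a time deviated together with r of 0.067 to 0.24 between fractions, where all pairs of groups gave -0.22 to 0.48. These values do not settle pairing, and the main fits did not use the number as a pair. Hairpins were placed with GENCODE M21, and sequences are from RefSeq.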

Additional observations from a re-analysis of the deposited data

Results flagged for a closer look

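The nuclear 0 h library replicate 2 stood apart from the other 5 nuclear libraries for miR-29b-3p. It held 275 normalized counts (187 reads) against 453 to 484 in the others, a gap of 0.85 of the whole range, above Dixon's 95% limit for 6 values. Its log2 ratio of miR-29b-3p to miR-29a-3p, -6.25, passed the same limit narrowly at 0.626. In all 14 sets of 6 libraries were examined this way, and chance alone sets apart about 1 in 20. The sets mix 3 times, so a difference between times can also widen a gap.

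The 24 h response differed between the fractions by the interaction test for miR-29b-3p, at 0.83 (nucleus minus cytoplasm, log2, adjusted p = 0.047), and for miR-29a-5p, at 1.39 (adjusted p = 0.012). The first of these was close to the threshold, and most fits with 1 library left out lost the call. Its value in those fits ran from 0.46, without the library named above, to 1.20. For miR-29a-5p the 2 cytoplasmic libraries at 24 h were both lower than both at 0 h, whereas the nuclear libraries of the 2 times overlapped.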

How the results depend on the processing

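The values for the arms and their ratios were recomputed under 809 alternatives of 43 results. Direction and side of the threshold were kept in 752, the direction but not the call in 17 that lost it and 16 that gained it, and the direction was turned in 24. For 20 results nothing changed. Some alternatives could change only the p-value, so the total kept is in part fixed in advance. These are the blocks, and comparisons at a single time with a library of another time left out. Pseudocounts of 0.5 and 10, the filter at a mean of 25 and limma-voom on the recovered reads changed no call of an arm. The filter at 100 changed none of miR-29a-3p and miR-29b-3p and removed miR-29c-3p and miR-29a-5p, which were not tested under it. The causes of the changes below were not tested.

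With miR-21a-5p left out of the total count used for scaling, there were nucleus against cytoplasm differences of 0.29 at 0 h and 0.47 at 2 h for miR-29a-3p, no longer called. At 0 h it gave -0.20 for miR-29c-3p, turned, and -1.20 for miR-29a-5p, now called. At 24 h in the nucleus it gave 0.062 for miR-29a-3p, 0.27 for miR-29c-3p and 0.36 for miR-29a-5p, all turned, and 0.86 for miR-29b-3p, now called. It left 55 miRNAs called at 24 h in the cytoplasm (86 in the report). Scaling to the total count gave 0.41 for miR-29a-3p between fractions at 24 h, no longer called. At 24 h in the cytoplasm it gave 0.0072 for miR-29a-3p and 0.0033 for miR-29b-3p, both turned, and -1.07 for miR-29a-5p, no longer called. miR-29a-5p at 2 h in the cytoplasm turned to 0.018 with it. The 24 h interactions became -0.39 for miR-29a-3p, and 0.41 for miR-29b-3p and 0.99 for miR-29a-5p without a call. At 2 h the interaction of miR-29a-3p became -0.082, and 13 miRNAs were called (20 in the report).

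Scaling to miR-186-5p gave 0.95 for miR-29b-3p between fractions at 0 h, now called, -1.18 for miR-29a-5p at 24 h in the cytoplasm, no longer called, and 0.088 for it at 2 h, turned. Its 24 h interactions were -0.45 for miR-29a-3p, 0.35 for miR-29b-3p and 0.93 for miR-29a-5p, and its 2 h interaction was -0.35 for miR-29a-3p. It left 63 miRNAs called between the fractions at 24 h (95 in the report), 17 at 24 h in the cytoplasm and 0 for the 2 h interaction. Size factors within the fraction turned miR-29a-5p at 2 h in the cytoplasm to 0.012. With time as a further term miR-29c-3p was called between the fractions at 0.63.

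The deviations of same-numbered libraries (r from 0.067 to 0.24) do not settle whether these are pairs. With the replicate block the arms kept their calls. Their values, such as 0.86 for miR-29a-3p and -1.48 for miR-29a-5p, cannot change under a block in this balanced design. Only the p-values can. The same holds for the ratio differences of 0.39, -0.21 and -0.93. With the replicate number within each time as the block, the arms also kept their calls between fractions over all times. There miR-29c-3p, whose value of 0.63 is likewise fixed, had a limma adjusted p of 0.012.

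Leaving out each library in turn gave these ranges. Between fractions miR-29c-3p ran from 0.54 to 0.74, miR-29a-5p from -0.27 to 0.077, and miR-29b-3p at 0 h from 0.30 to 1.04. At 24 h in the nucleus miR-29b-3p ran from 0.034 to 0.77, miR-29c-3p from -0.38 to 0.028 and miR-29a-5p from -0.28 to 0.11. At 2 h in the cytoplasm miR-29a-5p ran from -0.25 to 0.24. The 24 h interactions ran from -0.067 to 0.11 for miR-29a-3p and from 0.46 to 1.20 for miR-29b-3p, and those at 2 h from -0.073 to 0.16 and from 0.53 to 1.28. The ratios ran from 0.27 to 0.51 for miR-29b-3p over miR-29a-3p and from -1.05 to -0.81 for miR-29a-5p over miR-29a-3p. The miRNAs called numbered 50 to 109 between fractions at 24 h, fewest without cytoplasmic replicate 1 of that time and 58 without any of its other libraries. They numbered 35 to 98 at 24 h in the cytoplasm, with 35 and 43 without its 24 h replicates 1 and 2, and 18 to 139 in the nucleus, with 18 and 25 without its 24 h replicates 1 and 2 and 70 without 0 h replicate 2. At 2 h there were 0 to 19 in the cytoplasm, most without 0 h replicate 2, and 0 to 31 in the nucleus, with 31 without 2 h replicate 2 and 7 without 0 h replicate 1. The interaction called 97 to 168 miRNAs at 24 h, with 97 without nuclear 0 h replicate 2, 99 without cytoplasmic 24 h replicate 1 and 106 without nuclear 24 h replicate 2, and 0 to 66 at 2 h. A lone remaining library was assumed to vary as the other groups do. Depth limits miR-29c-3p and miR-29a-5p, of which no nuclear library held over 39 reads.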
